A study of Mus musculus with 16 samples.

Results

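The mitochondrial chromosome of the mouse carries 37 genes, and every one of them has a row in the deposited count table of 54838 genes. Members were chosen by position alone: a gene was taken when its Ensembl identifier lies on the mitochondrial chromosome in GENCODE mouse M21. They are 13 mRNA genes, 2 rRNA genes and 22 tRNA genes. Counts came from bulk RNA-seq of adrenal glands of mice aged 4 weeks, each library made from 1 mouse of a mixed genetic background. A gain-of-function (GOF) genotype of Rspo1, which encodes the secreted WNT signalling enhancer R-spondin 1, was set against controls in both sexes, with 4 libraries each of female control, female GOF, male control and male GOF. The labels name no promoter or Cre line that drives the GOF genotype, no allele carried by the controls and no treatment. Total counts ran from 31275146 to 43003968 a library, and Rspo1 itself was 30.7-fold higher in female GOF than in female control libraries and 26.4-fold higher in males.

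Mitochondrial DNA is read from both strands as long precursor RNAs by the mitochondrial RNA polymerase POLRMT with the help of TFAM and TFB2M. The tRNAs lie between most of the other genes and are cut out of the precursor, which frees the rRNAs and mRNAs, and many of these then receive short poly(A) tails. The mRNAs encode core subunits of the respiratory complexes I (mt-Nd genes), III (mt-Cytb) and IV (mt-Co genes) and of the ATP synthase (mt-Atp6 and mt-Atp8), and all proteins needed to make them come from nuclear genes. The adrenal cortex is rich in mitochondria, since the side-chain cleavage that starts steroid synthesis takes place on their inner membrane.

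Some neighbours on this chromosome share bases, and reads there cannot be assigned to a single gene by position. The 3 longest stretches shared by mRNA genes are shown with 20 bases on either side and the shared bases in capitals, because they bear on the counts of mt-Atp8, mt-Nd4l and mt-Nd6. They are chrM:7907-7989, chrM:10147-10193 and chrM:13532-13585 on the plus strand of GRCm38, taken from the GENCODE M21 transcripts.
mt-Atp8 and mt-Atp6: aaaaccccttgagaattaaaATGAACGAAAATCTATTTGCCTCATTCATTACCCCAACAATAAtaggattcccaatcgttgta
mt-Nd4l and mt-Nd4: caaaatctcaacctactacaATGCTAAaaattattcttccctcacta
mt-Nd5 and mt-Nd6: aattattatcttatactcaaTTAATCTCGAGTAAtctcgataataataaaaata
The first pair shares 43 bases, the second 7 and the third 14, and in the third the genes lie on opposite strands. The gene mt-Nd6 is the 1 mRNA gene on the minus strand. Whether counting used strand is not given in the sources used here.

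A second limit comes from the nuclear genome, which holds old copies of mitochondrial DNA. In GRCm38 a row of 7 unprocessed pseudogenes on chromosome 1 (chr1:24611535-24616197, minus strand) matches 7 of the mRNA genes almost base for base. Gm28661 matches mt-Co2, Gm10925 matches mt-Atp6, Gm28437 matches mt-Co3 and Gm10222 matches mt-Nd4l with 0 differing bases over the aligned length, and Gm28439 matches bases 1 to 876 of mt-Nd4 with 0 differences. The other 2 copies differ from their gene by 1 base each, which is in capitals in the lines that follow, counted from 1 at the 5′ end of the mitochondrial gene. These are the A1066T difference between mt-Co1 and Gm29216, whose aligned stretch runs from base 1063 to 1545, and the T3C difference between mt-Nd3 and Gm28438.
mt-Co1, bases 1063 to 1086: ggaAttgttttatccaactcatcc
Gm29216, same bases: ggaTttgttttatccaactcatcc
mt-Nd3, bases 1 to 23: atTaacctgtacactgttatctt
Gm28438, same bases: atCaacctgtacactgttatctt
Away from these positions a read gives no sequence by which to tell the mitochondrial gene from its copy. Reads were 150 bases long, and the share of all 150-base windows of a gene that occurs unchanged in an annotated nuclear transcript was 99.8% for mt-Co3, 99.4% for both mt-Co2 and mt-Atp6, 97.97% for mt-Nd4l, 97.0% for mt-Nd3, 59.2% for mt-Nd4 and 23.6% for mt-Co1. It was 0.0% for mt-Nd1, mt-Nd2, mt-Nd5, mt-Nd6, mt-Cytb, mt-Atp8 and both rRNA genes. Only annotated transcripts were compared, so 0.0% says nothing of copies outside them. For mt-Atp8 this bears on the stretch between Gm10925, which ends at chr1:24614651, and Gm28661, which starts at chr1:24614885, since mt-Atp8 lies between mt-Co2 and mt-Atp6 on the mitochondrial chromosome.

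Levels per length differed widely among the members. On the deposited FPKM scale, averaged over the 16 libraries, mt-Co1, the catalytic core of complex IV, came first with 10003 (range 5387 to 15270). It was followed by mt-Cytb with 4900, mt-Nd1 with 4147, mt-Nd2 with 3279, mt-Nd4 with 2136 and mt-Nd5 with 1491. Each of these stood above the next in all 16 libraries, except that mt-Cytb stood above mt-Nd1 in 15. Then came mt-Nd6 with 761, the proline tRNA mt-Tp with 650, the small-subunit rRNA mt-Rnr1 with 538 and the large-subunit rRNA mt-Rnr2 with 274. The tRNA mt-Tp exceeded mt-Rnr1 in 11 of 16 libraries, so this pair has no firm order, whereas mt-Rnr1 exceeded mt-Rnr2 in all 16. The FPKM of mt-Tp divides by an annotated length of 67 bases, shorter than the reads, and cannot be set beside that of longer genes. The part of library preparation in the rRNA values was not tested. The order is therefore that of assigned reads per annotated length, and does not show how abundant each kind of RNA was in the gland.

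The bottom of the order held the genes with near-complete nuclear copies. Mean FPKM was 143 for mt-Nd3, 18.3 for mt-Atp6, 10.2 for mt-Co2, 2.84 for mt-Co3 and 0.0523 for mt-Nd4l. The gene mt-Atp8, with 0.0% of windows in an annotated nuclear transcript, stood among them with 11.1 and exceeded mt-Co2 in 10 of 16 libraries. It shares 43 of its bases with mt-Atp6. Raw counts were 0 to 3 for mt-Nd4l, 37 to 107 for mt-Co3, 41 to 127 for mt-Atp8, 151 to 601 for mt-Co2 and 143 to 732 for mt-Atp6, against 281326 to 780725 for mt-Co1. These values are the reads that the deposited table assigned to each gene. How reads shared with a nuclear copy were assigned is not given in the sources used here, and the part of the copies in the low values was not tested.

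**Figure D1:**
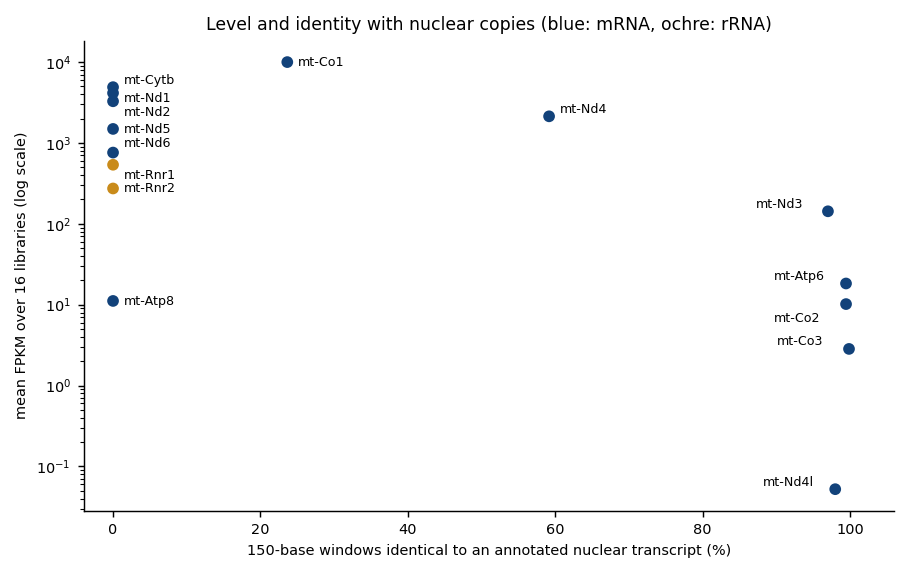
Mean deposited FPKM over 16 libraries (log scale) of the 13 mRNA and 2 rRNA genes against the percent of their 150-base windows that occur unchanged in an annotated nuclear transcript; each point is 1 gene. The 5 genes at 97.0% or above have means from 0.0523 to 143, and mt-Atp8 at 0.0% has 11.1; copies outside annotated transcripts were not compared.

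The tRNA genes were nearly silent in the table. Of the 22, 21 had 0 counts in every library, which allows at most 0.0698 to 0.0959 CPM (counts per 1000000 counts of the library; 3 counts of its total, counting error only). The annotated tRNA genes are 59 to 75 bases long, shorter than the reads. The exception was mt-Tp, with 814 to 2617 counts. Its sequence is shown beside that of mt-Tf, the phenylalanine tRNA, because these 2 genes lie on either side of the non-coding control region, at chrM:15356-15422 on the minus strand and chrM:1-68 on the plus strand of GRCm38.
mt-Tp: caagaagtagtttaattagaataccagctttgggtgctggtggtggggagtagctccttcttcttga
mt-Tf: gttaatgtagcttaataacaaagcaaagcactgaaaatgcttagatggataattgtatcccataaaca
The table held 0 counts for mt-Tf in all 16 libraries. Counts of mt-Tp are reads that overlap this stretch, from either strand if strand was not used, and do not show a mature tRNA.

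A filter on low counts across the 4 groups passed 18214 of the 54838 genes, among them 12 of 13 mRNA genes (all but mt-Nd4l), both rRNA genes and 1 of 22 tRNA genes. These 15 members were tested in 1 edgeR quasi-likelihood fit over all 16 libraries, with p-values adjusted by Benjamini-Hochberg over all genes tested and a threshold of 0.05.

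Mitochondrial mRNAs took a smaller share of the counts in GOF adrenals of both sexes. The share was 4.35%, 3.66%, 3.45% and 4.00% in the female controls against 2.84%, 2.40%, 1.70% and 2.40% in female GOF. It was 4.33%, 4.00%, 5.20% and 4.30% in the male controls against 2.83%, 2.84%, 3.67% and 3.33% in male GOF. Within each sex every GOF library lay below every control library. The sample titles carry an animal number, and the same order held within each range of numbers that had both genotypes: 2 ranges in each sex, the smallest with 1 control and 1 GOF library. As a sum over members, the share was not tested.

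These are whole glands, and in bulk tissue fewer cells of a type and less RNA per cell cannot be told apart. Among all genes tested, 20.6% were called lower and 19.0% higher in females, and 21.8% lower and 15.2% higher in males. All 8 medulla markers (among them Th, Dbh and Chga) fell in GOF in both sexes, and their summed level was 4765 to 10831 CPM scaled by TMM factors in female controls against 199.6 to 772 in female GOF, and 7578 to 11523 against 398 to 885 in males. Of 8 markers of white and brown fat, 7 fell in females and 8 in males, with sums of 1804 to 2339 against 468 to 911 in females and 2170 to 4646 against 365 to 467 in males. The 3 markers of the X-zone, the fetal-type inner cortex, summed to 5118 to 7538 in female controls, 50.9 to 109 in female GOF, 31.8 to 41.1 in male controls and 25.1 to 33.5 in male GOF. All 3 were called lower in females and 2 of them in males, where the groups overlapped for each marker (median log2 fold change -3.56). The 8 markers of cortical steroid cells, such as Cyp11a1 and Star, gave 40677 to 52282 and 46408 to 54071 in female control and GOF, and 34723 to 55729 and 36741 to 49723 in males. Of these 8, Nr5a1 (0.82 in females, 1.04 in males) and Hsd3b1 (0.89 and 0.61) rose and Star (-0.78 and -0.57, log2) fell in both sexes. Liver markers summed to 116 to 171 in female controls against 15.1 to 43.1 in female GOF, with 1 of 10 called lower, and to 182.4 to 9491 against 8.48 to 84.8 in males, with 10 of 10 lower. In males 3 of 6 erythroid markers fell (sums of 1088 to 2128 against 388 to 754), and of 8 macrophage markers 4 rose and 1 fell (266 to 373 against 406 to 853). In females these 2 sums overlapped between the genotypes. The part of the medulla, fat, X-zone, liver, erythroid and macrophage markers in the mitochondrial results was not tested. Male control 2 stood apart with 9491 CPM of liver markers against 182.4 to 772 in the other male controls, and female control 1 with 1075 CPM of kidney tubule markers against 0.903 to 179.5 in the other female controls. Both also stood apart for skeletal muscle markers, with 87.3 CPM against 1.97 to 2.44 and 23.0 against 2.26 to 4.68. Of the markers tested, 2 of 5 for muscle fell in males and 2 of 2 for kidney tubule in females.

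In females, 10 of the 12 mRNAs tested fell with Rspo1 GOF and 0 rose, where 20.6% of all genes tested fell. In males 9 of 12 fell and 0 rose, where 21.8% of all genes fell. The median log2 fold change of the 12 mRNAs was -0.87 in females and -0.60 in males, and that of all genes tested was 0.05 and 0.01. In each sex the control and GOF groups did not overlap for 10 mRNAs in females and 9 in males, and 20.4% and 19.1% of all genes tested were lower without overlap. With female control 1 and male control 2 left out together, 9 mRNAs fell in females and 9 in males. In that fit 34.3% and 28% of all genes were called in either direction.

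**Figure D2:**
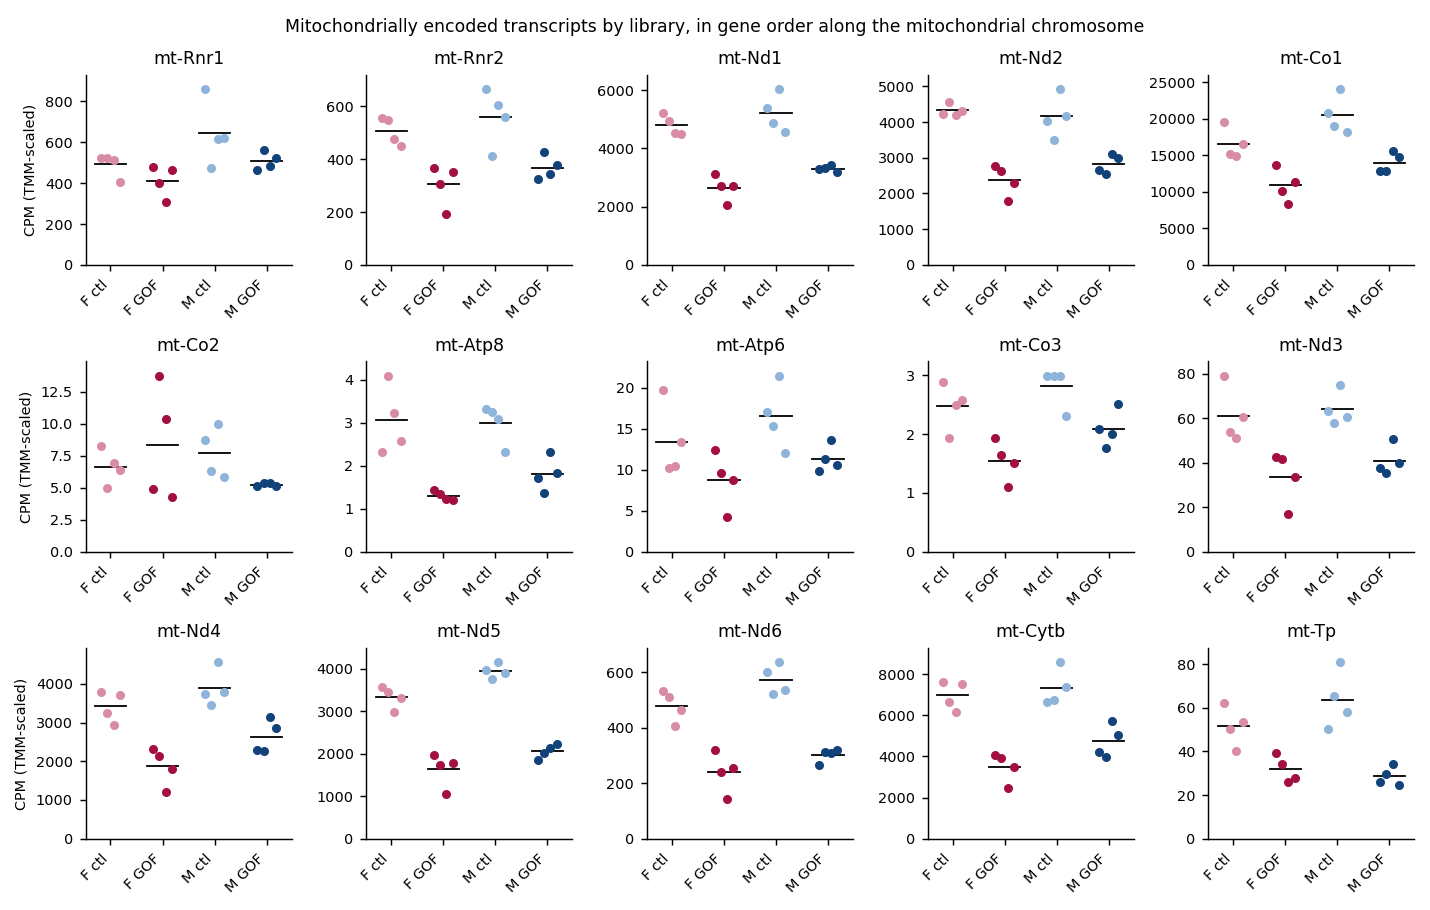
TMM-scaled CPM of the 15 members tested, 1 panel a gene in the order of the mitochondrial chromosome, with 1 point a library, a bar at the group mean (n = 4) and linear axes from 0. In both sexes the GOF points of mt-Nd1, mt-Nd2, mt-Co1, mt-Nd4, mt-Nd5, mt-Nd6 and mt-Cytb all lie below the control points, while those of mt-Rnr1 and mt-Atp6 overlap with them.

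Of the complex I subunits, all 6 that were tested fell in both sexes: mt-Nd1, mt-Nd2, mt-Nd3, mt-Nd4, mt-Nd5 and mt-Nd6. The largest falls among them were those of mt-Nd5 and mt-Nd6, which encode a proton-pumping subunit and a membrane subunit of the complex. For mt-Nd5 the female controls had 3564, 3456, 2987 and 3307 CPM and the female GOF libraries 1968, 1725, 1058 and 1786. The male controls had 3971, 3769, 4150 and 3897 CPM and the male GOF libraries 1853, 2005, 2129 and 2224. The lowest control of each sex lay above its highest GOF library. The log2 fold change of mt-Nd5 was -1.03 ± 0.15 (SE, adjusted p = 9.39e-05, edgeR) in females and -0.94 ± 0.15 (adjusted p = 0.000169) in males.

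The gene next to it on the opposite strand fell by a like amount. For mt-Nd6 the female values were 531, 510, 404 and 464 CPM in controls and 318, 242, 143 and 254 in GOF, and the male values 600, 522, 635 and 535 against 265, 311, 310 and 320. Its log2 fold change was -0.996 ± 0.18 (adjusted p = 0.000481, edgeR) in females and -0.93 ± 0.18 (adjusted p = 0.000851) in males. The use of strand is not known. If strand was not used, reads of the opposite strand could be counted for mt-Nd6 over its whole length. Reads over the 14 bases shared with mt-Nd5 could be counted for either gene.

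The gene mt-Nd1, which encodes a membrane subunit near the ubiquinone site of complex I, has 0.0% of windows in an annotated nuclear transcript. It had 5217, 4954, 4533 and 4481 CPM in female controls and 3113, 2705, 2042 and 2722 in female GOF. Male controls had 5373, 4862, 6054 and 4580 CPM and male GOF libraries 3282, 3341, 3416 and 3208. The 4 male GOF libraries lay within a narrow band (SD 88.3 CPM), and no group overlapped with its control. The log2 fold change was -0.86 ± 0.12 (adjusted p = 9.33e-05, edgeR) in females and -0.66 ± 0.12 (adjusted p = 0.00078) in males. For mt-Nd2, mt-Nd3 and mt-Nd4 the log2 fold changes were -0.87, -0.86 and -0.87 in females and -0.55, -0.65 and -0.56 in males. The male calls of mt-Nd3 and mt-Nd4 were the least firm of this group, with adjusted p of 0.0378 and 0.0238 in edgeR, and under library totals alone they became 0.0868 and 0.0732. The call of mt-Nd3 was lost in 6 of the 16 fits that left out 1 library and that of mt-Nd4 in 3, with adjusted p of 0.0963 and 0.0723 without male control 3.

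For mt-Cytb, the mitochondrial subunit of complex III, the female controls had 7600, 6664, 6170 and 7500 CPM against 4054, 3923, 2443 and 3483 in GOF. Male controls had 6660, 6734, 8570 and 7349 CPM against 4201, 3983, 5699 and 5052. The groups did not overlap, and the log2 fold change was -1.01 ± 0.16 (adjusted p = 0.000236, edgeR) in females and -0.63 ± 0.16 (adjusted p = 0.00708) in males. The male calls of mt-Cytb (-0.52, adjusted p = 0.109) and mt-Nd2 (-0.43, adjusted p = 0.0961) were lost on log2(FPKM + 1) without a filter, using limma.

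Of the complex IV subunits, mt-Co1 passed the threshold in both sexes, mt-Co3 in females and mt-Co2 in neither. The gene mt-Co1 fell in both sexes, with 19602, 15217, 14954 and 16588 CPM in female controls against 13605, 10142, 8394 and 11342 in female GOF. In males it had 20781, 19036, 24110 and 18234 CPM against 12796, 12848, 15626 and 14742. Its log2 fold change was -0.61 ± 0.15 (adjusted p = 0.00597, edgeR) and -0.55 ± 0.15 (adjusted p = 0.0115). With limma on log2(FPKM + 1) the male call of mt-Co1 was lost (adjusted p = 0.0622), and with no filter the female call as well (adjusted p = 0.178). For mt-Co3 it was -0.67 in females (adjusted p = 0.0185, edgeR) and -0.43 in males (adjusted p = 0.116), and without female control 1 the female value was -0.59 (adjusted p = 0.0561).

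The gene mt-Co2 passed the threshold in neither sex. It had 8.27, 4.9985, 6.92 and 6.36 CPM in female controls and 4.94, 13.8, 10.4 and 4.31 in female GOF, so 2 of the 4 GOF libraries stood above all 4 controls and 2 below. The female log2 fold change was 0.33 ± 0.31 (adjusted p = 0.421, edgeR), and it became -0.06 without female GOF 2. Male values were 8.70, 6.31, 10.01 and 5.81 CPM in controls and 5.14, 5.34, 5.33 and 5.10 in GOF, a log2 fold change of -0.56 ± 0.31 (adjusted p = 0.174). Both mt-Co2 and mt-Co3 have nuclear copies over nearly their whole length.

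Of the ATP synthase subunits, mt-Atp8 fell in both sexes and mt-Atp6 passed the threshold in neither. The female values of mt-Atp8 were 2.32, 4.10, 3.23 and 2.58 CPM in controls and 1.43, 1.35, 1.22 and 1.20 in GOF, a log2 fold change of -1.23 ± 0.22 (adjusted p = 0.000619, edgeR). In males they were 3.32, 3.24, 3.09 and 2.31 CPM against 1.72, 1.37, 2.33 and 1.84, a log2 fold change of -0.72 ± 0.22 (adjusted p = 0.0198), with 1 GOF library just above the lowest control. These values rest on 41 to 127 reads a library, and the male call was lost without male control 2 (adjusted p = 0.0505) or male GOF 2 (adjusted p = 0.0537). For mt-Atp6 the log2 fold change was -0.62 ± 0.28 in females (adjusted p = 0.0975) and -0.54 ± 0.28 in males (adjusted p = 0.15). The female value was -0.37 (adjusted p = 0.317) without female control 1 and -0.83 (adjusted p = 0.0409) without female GOF 1.

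The 2 rRNAs are cut from the same precursor, and 1 of them passed the threshold. For mt-Rnr1 the female values were 526, 524, 514 and 407 CPM in controls and 478, 399, 307 and 464 in GOF, which overlap. Its male values were 863, 474, 618 and 619 CPM against 465, 560, 486 and 525, which also overlap. The log2 fold change was -0.26 ± 0.17 in females (adjusted p = 0.233, edgeR) and -0.34 ± 0.17 in males (adjusted p = 0.125), and the male value was -0.46 (adjusted p = 0.0404) without male control 2 and -0.17 (adjusted p = 0.419) without male control 1.

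The larger rRNA, mt-Rnr2, fell in both sexes. It had 557, 548.5, 475 and 449 CPM in female controls against 368, 307, 192 and 351 in female GOF, with no overlap. Male controls had 666, 413, 605 and 558 CPM and male GOF libraries 325, 427, 343 and 378, where male GOF 2 exceeded male control 2. The log2 fold change was -0.74 ± 0.18 (adjusted p = 0.00525, edgeR) in females and -0.61 ± 0.18 (adjusted p = 0.017) in males. The male call was lost without male control 1 (adjusted p = 0.0501) and with limma on log2(FPKM + 1) (adjusted p = 0.0543).

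The tRNA mt-Tp fell as well. Its female values were 62.1, 50.3, 40.2 and 53.3 CPM in controls and 39.1, 34.1, 25.9 and 28.0 in GOF, and its male values 50.3, 65.6, 80.8 and 57.9 against 25.9, 29.5, 34.4 and 24.6. The groups did not overlap. The log2 fold change was -0.70 ± 0.17 (adjusted p = 0.00516, edgeR) in females and -1.16 ± 0.17 (adjusted p = 0.000114) in males, the lowest value of any tested member in males.

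**Figure D3:**
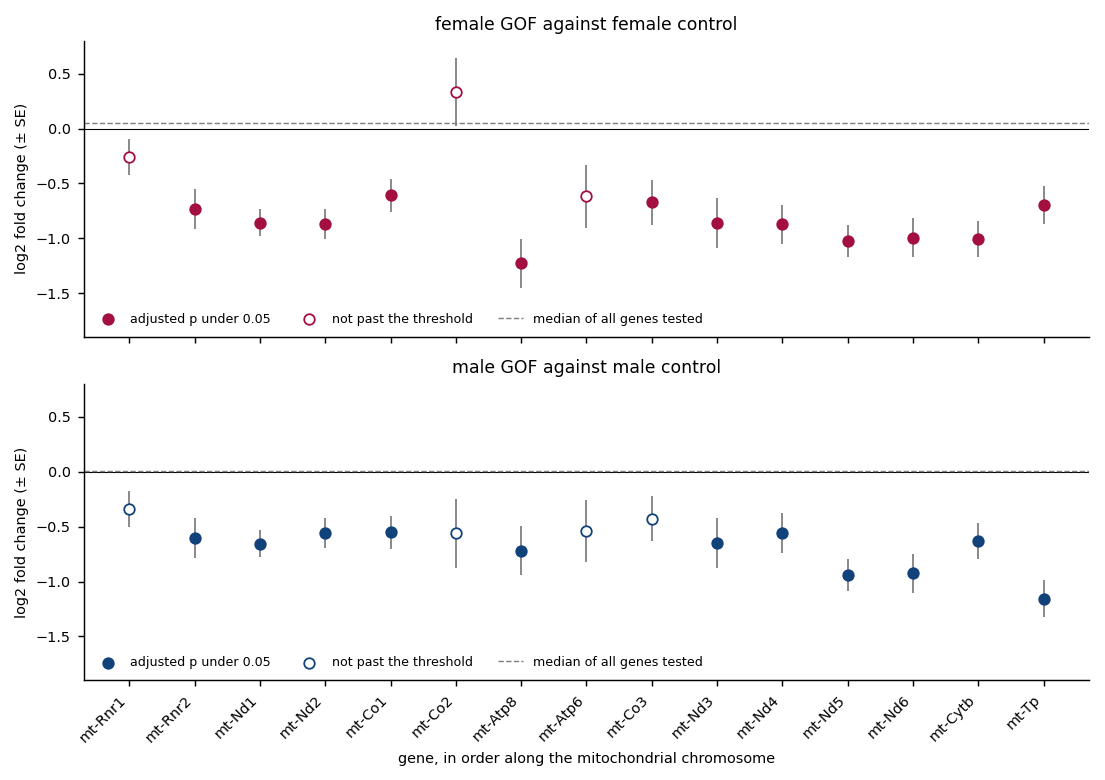
Log2 fold change of GOF against control (points, with bars of 1 SE) for the 15 members tested in the order of the mitochondrial chromosome, females above and males below; filled points passed an adjusted p of 0.05 and the dashed line is the median of all genes tested. Values run from -1.23 (mt-Atp8) to 0.33 (mt-Co2) in females and from -1.16 (mt-Tp) to -0.34 (mt-Rnr1) in males.

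The libraries were not alike within a group. Female GOF 3 was the lowest of all 16 libraries for 12 of the 15 members tested, and male control 3 the highest for 10. Leaving female GOF 3 out kept the count of mRNAs that fell in females at 10, with a median log2 fold change of -0.77.

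Because all members of a library share its scaling, ratios between members within a library show shifts in composition that no scaling factor can move. In total 5 such ratios were compared over 5 contrasts with exact two-sided permutation tests, 25 tests in all, adjusted by Benjamini-Hochberg. Within 1 sex the smallest p that 4 against 4 libraries can give is 0.0286, and permuting within both sexes together it is 0.000408.

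The count ratio of mt-Rnr2 to mt-Rnr1 was lower in GOF adrenals. It was 1.06, 1.05, 0.925 and 1.10 in female controls against 0.770, 0.770, 0.628 and 0.756 in female GOF. It was 0.772, 0.871, 0.979 and 0.902 in male controls against 0.698, 0.762, 0.707 and 0.720 in male GOF. The groups did not overlap in either sex. Over both sexes the ratio was 0.762-fold that of controls (exact permutation p = 0.000408, the smallest possible, adjusted p = 0.0102). Within females (0.706-fold) and males (0.822-fold) the exact p was 0.0286 each, adjusted p = 0.102.

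The ratio of mt-Nd5 to mt-Nd1, genes near the far and near ends of the heavy-strand transcript, was also lower. It was 0.683, 0.698, 0.659 and 0.738 in female controls against 0.632, 0.638, 0.518 and 0.656 in female GOF. Male values were 0.739, 0.775, 0.686 and 0.851 against 0.565, 0.6002, 0.623 and 0.693, with 1 GOF library above the lowest control. Over both sexes it was 0.845-fold that of controls (exact permutation p = 0.00122, adjusted p = 0.0153). Without female control 1 and male control 2 the size was alike, a log2 difference of -0.24, but the adjusted p was 0.0816.

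The other 3 ratios did not pass the threshold. The ratio of mt-Nd6 to mt-Nd5 was 0.143 ± 0.00638 in female controls, 0.145 ± 0.0116 in female GOF, 0.145 ± 0.00827 in male controls and 0.147 ± 0.00552 in male GOF (SD, n = 4 each). Across both sexes its fold was 1.01 (exact permutation adjusted p = 0.971). Because the use of strand is not known, the mt-Nd6 to mt-Nd5 ratio need not compare opposite strands. The ratio of mt-Rnr2 to mt-Nd1 was 1.05-fold that of controls (adjusted p = 0.765, exact permutation) and that of mt-Co3 to mt-Cytb 1.21-fold (adjusted p = 0.102, exact permutation), the latter on 37 to 107 reads of mt-Co3 a library. In females the mt-Co3 to mt-Cytb ratio of every GOF library lay above every control (1.27-fold, exact permutation p = 0.0286, the smallest possible, adjusted p = 0.102). Without male GOF 3 the test over both sexes passed the threshold (adjusted p = 0.0272, exact permutation). None of the 10 tests between the sexes passed the threshold.

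**Figure D4:**
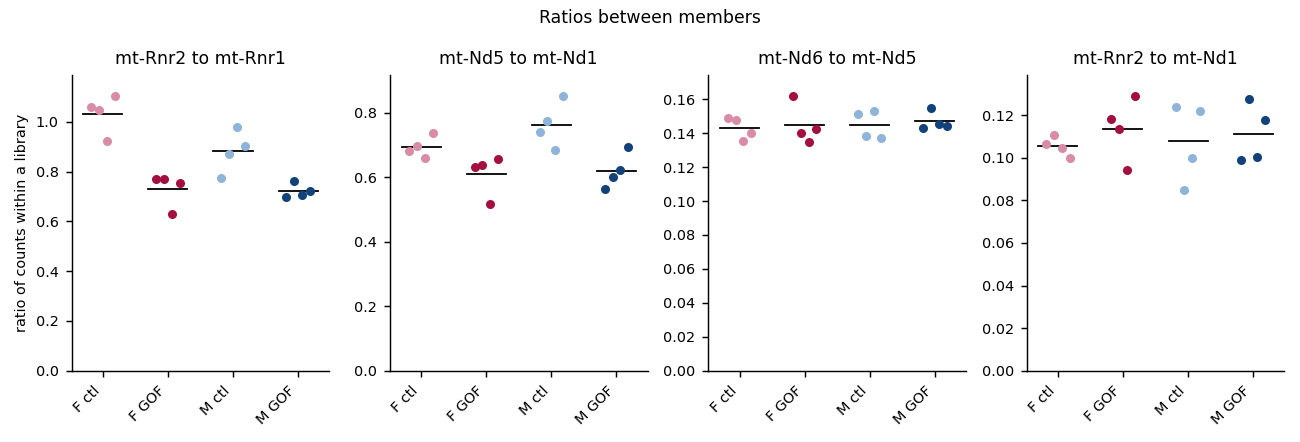
Ratios of raw counts within a library for 4 pairs of members (points, 1 a library; bar, mean of n = 4; axes from 0). The mt-Rnr2 to mt-Rnr1 ratio lies between 0.772 and 1.10 in the 8 control libraries and between 0.628 and 0.770 in the 8 GOF libraries, while the mt-Nd6 to mt-Nd5 ratio lies between 0.135 and 0.162 in all 16.

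Shares within the mitochondrial mRNA counts moved in the same sense. The share of mt-Nd5 was 8.33% ± 0.417 in female controls and 7.00% ± 0.59 in female GOF, and 8.68% ± 0.595 against 6.88% ± 0.421 in males (SD, n = 4). That of mt-Co1 was 41.4% ± 1.88 against 47.0% ± 2.72 in females and 44.9% ± 1.43 against 46.8% ± 0.164 in males. These shares sum to a fixed total, so a lower share of 1 gene raises those of others, and they were not tested. The 6 genes with the highest counts held 98.5% to 99.0% of the mitochondrial mRNA counts of every library.

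The members were also compared between the sexes. Between male and female controls 0 of the 12 mRNAs passed the threshold in edgeR, where 23.4% of all genes did. None of them had an unadjusted p under 0.05, and DESeq2 also called 0, with 1 at an unadjusted p under 0.05. The median log2 fold change of male against female controls was 0.18, and it turned to -0.089 with the range of animal numbers as a covariate. Of the 4 ranges, 2 held females only and 1 males only. Between male and female GOF adrenals 2 of 12 were higher in males, where 13.3% of all genes were. They were mt-Nd4 (log2 fold change 0.50 ± 0.18, adjusted p = 0.0471, edgeR) and mt-Cytb (0.45 ± 0.16, adjusted p = 0.0496). For both, the male and female GOF groups overlapped, and the calls were lost when only the GOF groups were fitted (adjusted p = 0.106 and 0.11) and without female GOF 3 (adjusted p = 0.12 and 0.134). With the range of animal numbers as a covariate the values were 0.16 for both (adjusted p = 0.776 and 0.748). Of the 16 fits that left out 1 library, controls included, 10 lost the call of mt-Nd4 and 13 that of mt-Cytb.

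The effect of GOF itself was not shown to differ between the sexes for any member. The interaction of sex and genotype passed the threshold for 0 of 12 mRNAs, 0 of 2 rRNAs and not for mt-Tp, where 4.21% of all genes passed it. For the mRNAs the count at an unadjusted p under 0.05 was 0 in edgeR, and DESeq2 called 0 as well. Interaction values ran from -0.89 ± 0.44 for mt-Co2 to 0.51 ± 0.31 for mt-Atp8 (log2, SE), so differences of that size could not be resolved for these genes. Among the 6 mRNAs with the highest counts they ran from 0.06 ± 0.22 for mt-Co1 to 0.38 ± 0.23 for mt-Cytb, with 0.20 ± 0.17 for mt-Nd1. The median of the 12 mRNAs was 0.21.

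Reads assigned to the nuclear copies were few and uneven. Together the 7 pseudogenes took 0.0015% to 0.0188% of all counts. Gm28438, the copy of mt-Nd3, had the steadiest counts, 469 to 1454 a library, beside 566 to 2940 for mt-Nd3 itself. Gm28439 and Gm10222 had at most 23 and 38 counts. Gm28661 ranged from 1 to 5021, with 5021 in male control 1, 777 in female control 1, 545 in male control 2, 427 in male control 3 and 320 in male GOF 4. Gm29216 had 4058 in male control 2 against at most 80, and Gm28437 had 825 in female control 2 against at most 67. The libraries with the most mt-Co2 reads were female GOF 2 (601), female GOF 3 (348), male control 3 (324), female control 1 (307) and male control 1 (283), and they had 13, 1, 427, 777 and 5021 reads of Gm28661.

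Of 71 tested nuclear genes in 5 lists on mitochondrial DNA, RNA and content, 26 were called in females and 24 in males, where 39.6% and 36.9% of all genes were called. In females 17 were called without female GOF 3, where 33.8% of all genes were, and 16 without female GOF 4, where 30.6% were. In at least 1 of the 16 fits that left out 1 library, 15 of the female calls and 9 of the male calls were lost. Of 10 genes for transcription of mitochondrial DNA, 3 rose and 0 fell in females and 2 rose and 0 fell in males. Of all genes 19.0% rose and 20.6% fell in females, and 15.2% rose and 21.8% fell in males. The polymerase Polrmt had log2 fold changes of 0.11 (adjusted p = 0.258, edgeR) in females and 0.06 (adjusted p = 0.584) in males, and the initiation factor Tfb2m -0.04 and -0.11 (adjusted p = 0.749 and 0.318). The DNA-packaging activator Tfam rose in females, from 57.8, 66.6, 60.9 and 59.7 CPM to 70.9, 66.6, 74.5 and 78.1, where the lowest GOF library was level with the highest control (log2 fold change 0.24, adjusted p = 0.0202), and had -0.02 in males (adjusted p = 0.849). The termination factor paralogs Mterf1a and Mterf1b rose by 0.54 and 0.70 in females, and Mterf1a by 0.67 and Mterf3 by 0.26 in males; as paralogs with similar sequences, Mterf1a and Mterf1b may share reads. The median of the list was 0.15 in females and 0.02 in males.

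Of 15 genes for replication and packaging of mitochondrial DNA, 4 rose and 1 fell in each sex. Of all genes 19.0% rose and 20.6% fell in females, and 15.2% rose and 21.8% fell in males. In females the highest were Mgme1, an exonuclease (0.57), and Twnk, the replicative helicase (0.54), and the 1 that fell was the topoisomerase Top1mt (-0.56). Without female GOF 4, Mgme1 had 0.37 (adjusted p = 0.169, edgeR). In males the highest were the polymerase subunit Polg2 (0.59) and Rnaseh1 (0.43), and the 1 that fell was the thymidine kinase Tk2 (-0.39), which had -0.25 without male control 1 (adjusted p = 0.0597, edgeR). Top1mt had 32.8, 35.05, 35.7 and 35.99 CPM in female controls, 19.5, 23.2, 25.9 and 26.2 in female GOF, 13.002, 12.98, 12.6 and 10.8 in male controls and 14.2, 13.4, 12.5 and 13.7 in male GOF. Both female groups lay above both male groups, and the female GOF libraries lay below the female controls. Its interaction of sex and genotype passed the threshold (0.68 ± 0.14, adjusted p = 0.0133, edgeR).

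Of 22 tested genes for processing, polyadenylation and stability of mitochondrial RNA, 8 rose and 0 fell in females, where 19.0% of all genes rose and 20.6% fell. In males 2 rose and 4 fell, where 15.2% of all genes rose and 21.8% fell. The highest in females were Tfb1m, which methylates the small rRNA (0.59), and the RNA-binding Fastkd5 (0.56), and the lowest of those that rose were Supv3l1 (0.17) and Tbrg4 (0.27). Fastkd5 had 0.37 without female GOF 2 (adjusted p = 0.131, edgeR), and Supv3l1 had 0.09 without female GOF 3 (adjusted p = 0.279). In males Ptcd1 (0.25) and Angel2 (0.18) rose. Ptcd1 had 0.17 without male GOF 2 (adjusted p = 0.123, edgeR), and Angel2 had 0.13 without male GOF 4 (adjusted p = 0.161, edgeR). The mRNA-stabilising factor Lrpprc had 83.8, 78.4, 77.0 and 75.7 CPM in female controls and 75.9, 83.0, 70.6 and 76.6 in female GOF (log2 fold change -0.04, adjusted p = 0.781, edgeR). In males it fell from 77.3, 83.9, 81.5 and 71.2 CPM to 48.4, 72.7, 51.2 and 52.3 (-0.48, adjusted p = 0.00258), with male GOF 2 apart from the other 3. The interaction for Lrpprc did not pass the threshold (adjusted p = 0.113). Grsf1, a binder of mitochondrial RNA granules, fell in males too (-0.28). Slirp, the partner of Lrpprc, was listed with at most 0.171 CPM in any library and was not tested; whether the counting of overlapping genes bears on this value is not known.

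Among 9 nuclear regulators of mitochondrial biogenesis, 5 rose and 2 fell in females, where 19.0% of all genes rose and 20.6% fell. In males 1 rose and 2 fell, where 15.2% of all genes rose and 21.8% fell. The 2 that fell in both sexes were the coactivators Ppargc1a and Ppargc1b, which drive mitochondrial biogenesis in fat, muscle and other tissues. Ppargc1a had 11.4, 2.45, 3.66 and 3.14 CPM in female controls and 0.613, 0.641, 0.656 and 0.628 in female GOF. In males it had 3.01, 6.52, 6.27 and 4.43 CPM against 1.40, 0.856, 1.43 and 0.875. Its log2 fold change was -3.02 ± 0.45 (adjusted p = 0.000121, edgeR) and -2.14 ± 0.43 (adjusted p = 0.0013), and that of Ppargc1b -1.50 and -2.83. The brown-fat genes Ucp1 and Cidea fell beside them (-3.24 and -3.26 in females, -3.68 and -4.54 in males), and the part of fat in these changes was not tested. The transcription factors Myc (0.97 in females, 0.75 in males) and, in females, the coactivator Pprc1 (0.79) rose. Pprc1 had 74.9 CPM in female GOF 2 and 28.7 to 36.2 in the other 3 female GOF libraries, and without female GOF 2 its value was 0.34 (adjusted p = 0.12, edgeR).

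Of 15 matrix, membrane and import proteins outside the respiratory chain, 3 fell and 0 rose in females and 8 fell and 0 rose in males, where 20.6% and 21.8% of all genes fell. The mRNA of citrate synthase, Cs, had a log2 fold change of -0.36 in females (adjusted p = 0.0736, edgeR). In males it fell by 1.03 on the log2 scale (adjusted p = 0.000123, edgeR), and the part of fat in this change was not tested. The carrier Slc25a5 (-0.49) and the chaperone Hspd1 (-0.49) fell in females. The import receptors Tomm20, Tomm22 and Tomm40 passed the threshold in neither sex. List medians were -0.09 in females and -0.26 in males.

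**Figure D5:**
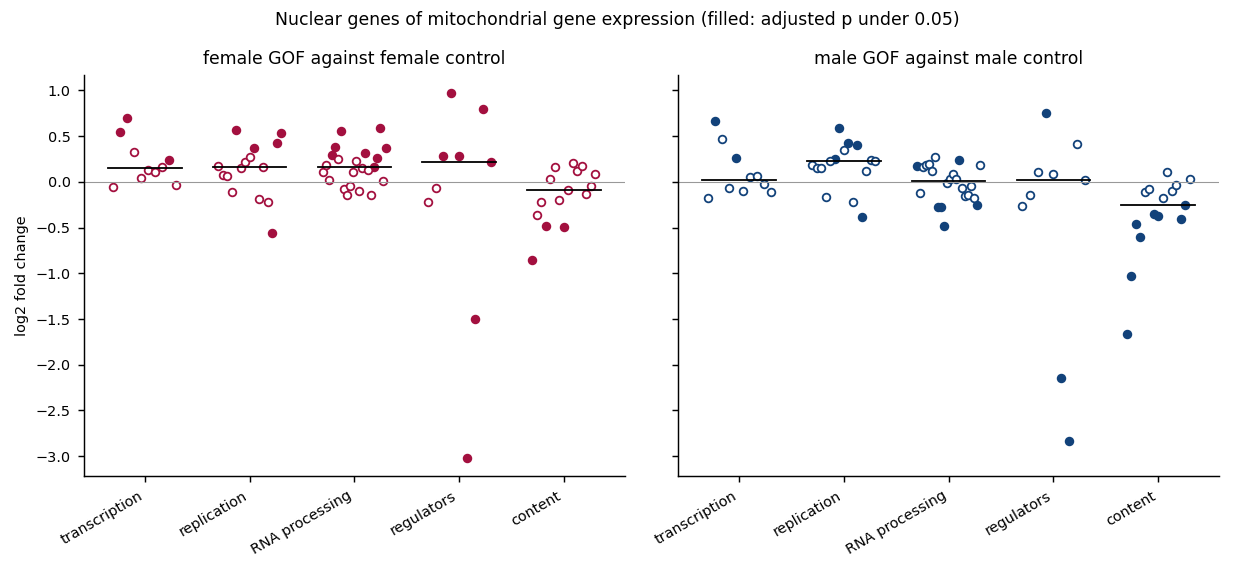
Log2 fold change of GOF against control for 71 tested nuclear genes in 5 lists, females left and males right; each point is 1 gene, filled where adjusted p was under 0.05, and bars are list medians. Medians run from -0.09 (content) to 0.21 (regulators) in females and from -0.26 (content) to 0.22 (replication) in males.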

How the data were processed

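RNA-seq libraries of 16 adrenal samples were analysed from the authors' deposited read counts per gene and their deposited FPKM values. Per the submitters' processing notes, Bowtie2 2.2.3, TopHat2 2.0.12, HTSeq 0.6.1 and DESeq 1.18.0 were used; their parameters, the genome build, the use of strand and the treatment of reads with several matches are not given in the sources used here. Per the labels' protocols, total RNA with a RIN of at least 7 was sequenced as 150-base read pairs after NEBNext Ultra preparation. FPKM used the annotated length of each member, checked against the counts.

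Counts were tested with edgeR 4.0.16 (robust quasi-likelihood, TMM, filterByExpr over the 4 groups, all libraries in 1 fit), in R 4.3.3, with Benjamini-Hochberg adjustment over 18214 genes. Members were matched by Ensembl identifier to GENCODE M21 (GRCm38), and its transcripts were compared with blastn 2.17.0+ (at least 90% identity over 150 bases). All 37 members and nuclear genes of 5 fixed lists are counted; of the lists, Polrmt, Tfam, Tfb2m, Lrpprc, Slirp, Ppargc1a and Cs and, per list and GOF comparison, the 2 highest and 2 lowest called genes are named (1 result is not reported here), and Hspd1, Ucp1, Cidea and the Tomm genes were added after their values were seen. Members and lists were chosen with earlier results of these data known. The edgeR step was tested on simulated counts for female GOF against female control, 18214 genes: 99 of 100 genes changed 2-fold and 56 of 100 changed 1.5-fold were recovered. The simulation gave all genes the same spread and changed only genes well above the count floor, so it does not give the power in these data. No pair of libraries in a group held identical values. Alternatives were DESeq2 1.42.0, limma 3.58.1 on log2(FPKM + 1) and log2(FPKM + 0.1), other scalings and filters, left-out libraries and the range of animal numbers as a covariate.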

Additional observations from a re-analysis of the deposited data

Results flagged for a closer look

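Within groups of 4 libraries, 11 of 108 sets of values had 1 library far from the other 3, its gap to the nearest, relative to the group's range, exceeding Dixon's 95% critical value; chance gives about 1 in 20. Among members 2 of 60 sets were flagged, no more than chance gives. In these, mt-Rnr1 was low in female control 4 (407 CPM, the others 514 to 526) and mt-Co3 low in male control 4 (2.31 CPM, the others 2.98 to 2.996). Among ratios 1 set was flagged: the count ratio of mt-Rnr2 to mt-Rnr1 was low in female GOF 3 (0.628, the others 0.756 to 0.770).

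The nuclear copies gave 8 of the 11. Gm28661 had 777 counts in female control 1 (27 to 98 in the other 3) and 5021 in male control 1 (29 to 545). Gm29216 had 4058 in male control 2 (25 to 80) and 65 in female GOF 1 (6 to 15). Gm28437 had 825 in female control 2 (7 to 18) and 67 in male control 3 (11 to 15). Gm10925 had 170 in female control 1 (17 to 23), and Gm10222 had 36 in male control 4 (30 to 31). No value here bears on how these reads arose.

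The interaction of sex and genotype passed the threshold for 1 gene of the nuclear lists, the topoisomerase Top1mt (log2 value 0.68, adjusted p = 0.0133, edgeR). Of all genes tested, 4.21% passed it.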

How the results depend on the processing

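Across the alternatives, every mRNA call in GOF against control was a lower value. Calls in females ranged from 9 to 11 of 12 as each library was left out, with medians of -0.97 to -0.77 (log2). In males they ranged from 6 to 9, with medians of -0.68 to -0.51, and 6 calls came without male GOF 2. In these fits 30.6% to 40% of all genes were called in females and 28.2% to 36.1% in males. In males, log2(FPKM + 1) without a filter gave 4 calls, with 13 mRNAs tested and 22.2% of all genes called, against 36.9%. The 2 calls of male against female GOF, where 29.6% of all genes were called, changed with the setting. They became 4 with DESeq2 (33.2% of all genes), library totals only (28.8%) and totals of nuclear genes only (28.8%). On log2(FPKM + 1) and log2(FPKM + 0.1) they were 5 and 6 (30.4% and 30.8%). There were 0 with no FPKM filter (13.5%), with only these groups (29.3%) and with the animal-number covariate (7.34%). Without female control 1 and male control 2 there were also 0 (29.8%). Left-out libraries gave 0 to 6 (22.8% to 30.3%). The median of male against female controls was -0.089 with that covariate, and left-out libraries gave 0.08 to 0.25. The female value of mt-Co2 turned to -0.064 without female GOF 2, and left-out libraries gave -0.064 to 0.52. Calls among the 71 nuclear genes in females, an analysis added after seeing the data, were 26, became 11 with no filter (where 17.6% of all genes were called, against 39.6%) and ranged from 16 to 28 over left-out libraries, with 17 without female GOF 3 and 16 without female GOF 4; in males 24 ranged from 19 to 25. With library totals only, the median of all genes was 0.11 in females and 0.12 in males. The cause of these shifts was not tested. The fit with only the groups compared gives no separate interaction. No paired analysis was possible because replicate numbers follow accession order. The values of mt-Nd4l, mt-Co3, mt-Atp8, mt-Atp6 and mt-Co2 rest on the fewest reads among the mRNA genes. The part of read number in their spread was not tested.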
